A study of Rattus norvegicus with 12 samples.

Results

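Transcripts of 43 cell cycle and DNA replication genes were followed in rat kidney after bromodichloromethane, 18 of the G1/S and replication class and 25 of the G2/M class, chosen by name as textbook cell cycle genes. Of these, 38 had at least 1 probe whose RefSeq accession leads to their symbol, 17 of the G1/S class and 21 of the G2/M class, out of 15284 named genes with a probe. All 38 passed the detection filter described below, and 35 of them were well above background on all 12 arrays. Mcm5 of the G1/S class and Bub1b, Ect2, Mki67 and Top2a of the G2/M class had no probe matched in this way.

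Cells that divide copy their DNA in S phase and separate it in mitosis, and each step has its own set of transcribed genes. Genes of the passage into S phase and of replication (G1/S genes) are classically switched on by E2F factors, whereas genes of the G2 phase and mitosis (G2/M genes) are mostly controlled through a short promoter element, the cell cycle genes homology region (CHR), together with CCAAT boxes, bound by the DREAM and MYB-MuvB complexes and by Foxm1. The healthy adult kidney tubule divides rarely, and proliferation of tubule cells is a known part of the response to toxic injury.

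The RNA came from the renal cortex of 12 male Sprague-Dawley (Crl:CD(SD)) rats, bought at 5 weeks of age, in 4 groups of 3 animals. Bromodichloromethane (BDCM), a chlorination by-product found in drinking water, was given at 200 mg/kg/day for 4 weeks, and the other rats received the corn oil vehicle. In the first experiment the animals were killed under CO2-O2 anaesthesia and in the second under isoflurane, in both 24 h after the last dose, so each experiment has a BDCM group and an oil group. Each animal's RNA was hybridised to 1 single-colour Agilent array, and no label says that animals were pooled. A level is the log2 of the array's processed signal minus the 75th percentile of that array, so that 0 is the 75th percentile. Levels of different genes come from different probes and are not compared with each other. Differences are on the same log2 scale, BDCM minus oil, and adjusted p-values are from limma with Benjamini-Hochberg adjustment over all 34218 features tested, with a threshold of 0.05.

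In the tissue check, all 9 renal cortex markers were well above background on every array. Of these, 0 rose and 6 fell with BDCM in the mean of both experiments, where 17.8% of all features rose and 20.3% fell. The share of probes well above background was between 67.4% and 72.5% per array. The summed linear level of 9 markers of injured tubule (in units of each array's 75th percentile) was 58.9, 137 and 178 in the BDCM animals against 28.3, 30.8 and 27.4 in the oil animals under CO2-O2. Under isoflurane it was 53.0, 97.7 and 106 in the BDCM animals against 26.8, 26.0 and 27.7 in the oil animals. Of these 9 markers, 4 rose and 1 fell in the mean of both experiments, with a median difference of 0.32. The sums therefore do not describe every marker. The summed level of 22 leukocyte markers was 139 to 207 in BDCM animals against 171 to 194 in oil animals under CO2-O2, and 134 to 169 in BDCM animals against 159 to 200 in oil animals under isoflurane. Of the 21 leukocyte markers tested, 1 rose and 3 fell in the mean of both experiments, neither above the share of all features. Every leukocyte marker was well above background on at least 1 array of each group. The summed level of 10 liver markers was between 8.11 and 18.2 on every array, although single markers varied far more. Between the anaesthetics, isoflurane minus CO2-O2, the lowest difference of a liver marker was -6.57 in oil animals and -5.94 in BDCM animals. Of the 9 liver markers tested, 2 rose and 2 fell in the mean of both experiments, both near the shares of all features. Tat was well above background on no array.

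Replication and mitotic transcripts were both higher in the BDCM cortex, but with different regularity between animals. In the mean of both experiments 24 of the 38 genes rose and 1, Kif11, fell, where 17.8% of all features rose and 20.3% fell. Of the G1/S class, 14 of 17 rose and none fell (15 of the 17 had an unadjusted p under 0.05 in limma). Of the G2/M class, 10 of 21 rose and 1 fell (16 of the 21 were higher at an unadjusted p under 0.05 in limma). The median difference was 0.87 over the G1/S class and 0.79 over the G2/M class, against -0.04 over all features. The difference was above 0 for 37 of the 38 genes, against 43.8% of all features. In RNA from whole cortex, more cells in cycle and more of these transcripts per cell cannot be told apart, nor can fewer cells of a type and less RNA per cell.

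Taken by experiment, 10 genes rose and none fell under CO2-O2, where 10% of features rose and 9.85% fell. All 10 belonged to the G1/S class. None of the 21 G2/M genes passed limma's threshold there, though 3 of them were higher and 1 lower at an unadjusted p under 0.05. Under isoflurane 9 genes rose, again all of the G1/S class, and Kif11 fell, where 13.2% of features rose and 12.8% fell. Another 2 G2/M genes were higher there at an unadjusted p under 0.05. The sets overlapped in 8 genes, E2f1, Cdc6, Cdt1, Gins2, Mcm2, Mcm3, Mcm4 and Mcm6, which rose in both experiments, 8 of the 10 under CO2-O2 and 8 of the 9 under isoflurane. Of all features, 8.59% rose in both. With the groups of an experiment fitted alone, 9 G1/S and 2 G2/M genes rose under isoflurane. In that limma fit 15 G2/M genes were higher at an unadjusted p under 0.05, where 17.8% of all features passed in either direction. Under CO2-O2 such a fit gave 9 G1/S and 0 G2/M genes higher, where 16.6% of all features passed. There 2 G2/M genes were higher at an unadjusted p under 0.05. In limma's interaction test of the BDCM effect between the experiments, 0 of the 38 genes passed, with 0 at an unadjusted p under 0.05 and 0 of all features passing (0% in either direction).

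**Figure D1:**
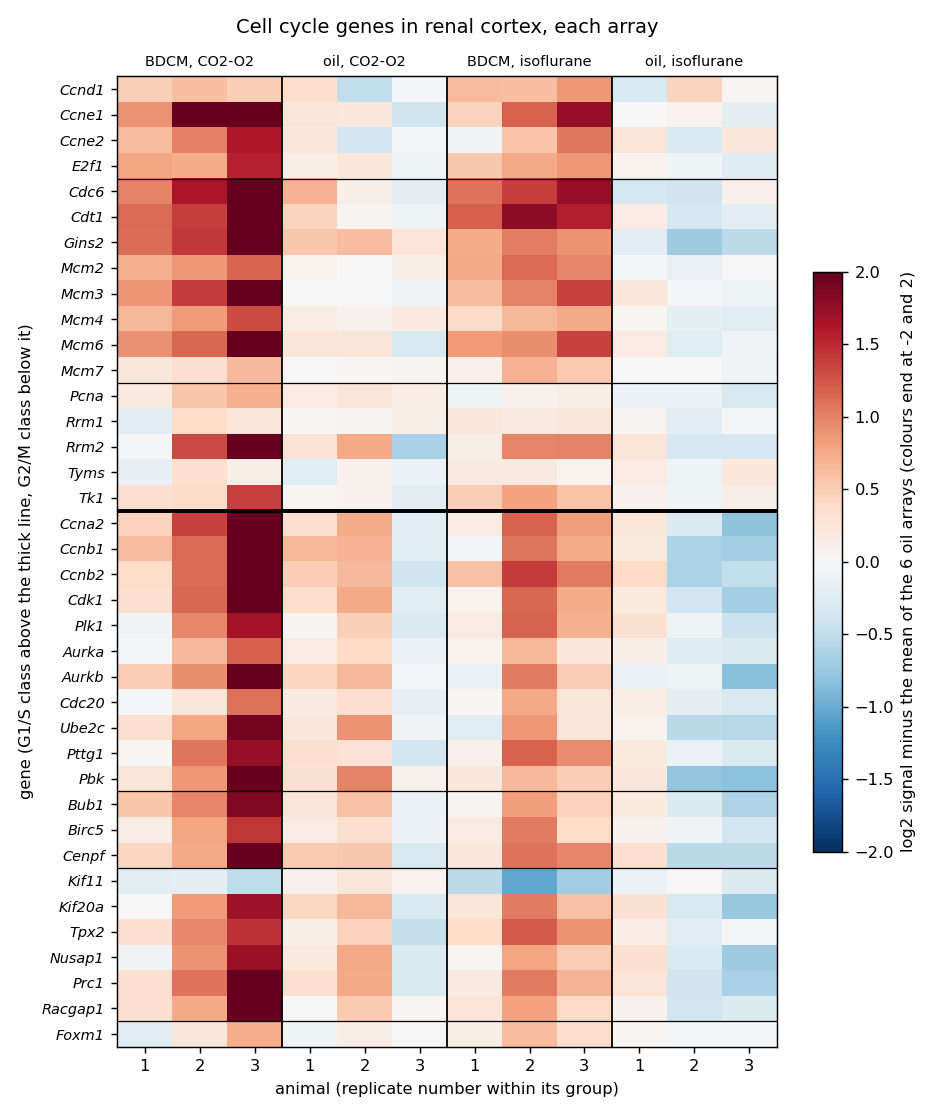
Log2 level of the 38 genes (down the page, by role) on each of the 12 arrays (across), shown as colour for the difference from the mean of the 6 oil arrays. Under BDCM the G1/S genes above the thick line are red in all 6 animals for most genes, whereas the G2/M genes below it are pale in animal 1 of both BDCM groups and deep red in animal 3 under CO2-O2, and Kif11 is blue under BDCM.

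The genes that build the replicative helicase and license origins rose with few exceptions. All 8 with a probe rose in the mean of both experiments, 7 of 8 under CO2-O2 and 8 of 8 under isoflurane, with mean differences of 0.42 to 1.52. Of all features 17.8%, 10% and 13.2% rose, in that order. Mcm2, a subunit of the ring-shaped MCM helicase, had the smallest adjusted p of the 38 genes. Mcm2 read -0.07, 0.10 and 0.39 in BDCM animals against -0.70, -0.77 and -0.64 in oil animals under CO2-O2, and -0.02, 0.36 and 0.21 in BDCM animals against -0.81, -0.92 and -0.78 in oil animals under isoflurane. The BDCM levels lay above the oil levels without overlap in both experiments, and the mean difference was 0.93 ± 0.09 (SE; adjusted p = 2.98e-05), a 1.91-fold higher level. Cdt1 brings the MCM ring to origins. Under CO2-O2 the Cdt1 level was -3.80, -3.55 and -2.85 in BDCM animals and -4.48, -4.87 and -5.03 in oil animals, while under isoflurane it was -3.74, -3.14 and -3.37 in BDCM animals and -4.77, -5.28 and -5.14 in oil animals. Again no BDCM animal overlapped an oil animal of its experiment. Its mean difference was 1.52 ± 0.18 (SE; adjusted p = 0.000147), or 2.87-fold. With normexp background correction the Cdt1 difference was smaller, 0.81, and passed.

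Gins2 codes for a subunit of the GINS complex, which joins the MCM ring to form the active helicase. The Gins2 levels were -4.43, -4.13 and -3.42 in BDCM animals and -5.00, -4.93 and -5.27 in oil animals of the CO2-O2 experiment, with -4.80, -4.52 and -4.65 in BDCM animals and -5.75, -6.25 and -6.06 in oil animals of the isoflurane experiment. The BDCM animals were above the oil animals in both experiments, and the mean difference was 1.22 ± 0.16 (SE; adjusted p = 0.000302). Of its isoflurane oil arrays 1 of 3 was well above background, as was the case for Cdc6, so the lower end of both genes rests on dim signals. Cdc6, which loads MCM rings together with Cdt1, had a mean difference of 1.52 ± 0.23 (SE; adjusted p = 0.000661). With normexp background correction the difference was 0.63 for Cdc6 and 0.47 for Gins2, and both passed. Mcm3, Mcm4 and Mcm6 had mean differences of 1.21, 0.77 and 1.21, each without overlap between BDCM and oil animals in both experiments. Of the 4 probes of Mcm4, each tested on its own, 1 dimmer probe did not pass, with 0.52 (adjusted p = 0.0662). Mcm7 had the smallest difference of the group, 0.42, and passed under isoflurane (adjusted p = 0.0407) but not under CO2-O2 (adjusted p = 0.102), a contrast between experiments whose own test gave an adjusted p of 0.976. In the mean of both experiments Cdc6, Cdt1, Gins2, Mcm2, Mcm3 and Mcm4 passed in all 26 other ways of processing or leaving out arrays, and Mcm6 passed in 25 and Mcm7 in 24 of them.

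All 4 genes of G1/S control rose in the mean of both experiments, where 17.8% of all features rose. E2f1, the transcription factor that switches on S phase genes, had the smallest adjusted p of these. E2f1 read -0.76, -0.80 and -0.01 in BDCM animals against -1.42, -1.31 and -1.65 in oil animals under CO2-O2, and -1.01, -0.80 and -0.67 in BDCM animals against -1.48, -1.64 and -1.80 in oil animals under isoflurane. The groups did not overlap in either experiment, and the mean difference was 0.87 ± 0.14 (SE; adjusted p = 0.00101). Ccne1 codes for cyclin E1, the partner of Cdk2 at the start of S phase. Under CO2-O2 the Ccne1 level was -2.58, -1.40 and -1.08 in BDCM animals and -3.20, -3.24 and -3.88 in oil animals, while under isoflurane it was -3.03, -2.30 and -1.73 in BDCM animals and -3.46, -3.40 and -3.66 in oil animals. BDCM animals were above oil animals in both experiments, with a wide spread among them. The mean difference of Ccne1 was 1.45 ± 0.28 (SE; adjusted p = 0.00282), a 2.74-fold higher level.

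Cyclin D1, from Ccnd1, couples growth signals to entry into the cycle. The Ccnd1 levels were 4.27, 4.39 and 4.28 in BDCM animals and 4.15, 3.30 and 3.75 in oil animals of the CO2-O2 experiment, with 4.42, 4.39 and 4.66 in BDCM animals and 3.48, 4.24 and 3.82 in oil animals of the isoflurane experiment. Every BDCM animal was above every oil animal of its experiment, though narrowly in both. The mean difference was 0.61 ± 0.16 (SE; adjusted p = 0.0113), while neither experiment alone passed (adjusted p = 0.0932 under CO2-O2 and 0.0563 under isoflurane). Ccne2, a second cyclin E gene, had a mean difference of 0.80 ± 0.23 (SE; adjusted p = 0.0187), and 0.39 with normexp background correction (adjusted p = 0.0167). It rose under CO2-O2 with 1.15 and did not pass under isoflurane with 0.45 (adjusted p = 0.332), and the difference between these effects did not pass (adjusted p = 0.936).

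Enzymes and factors of DNA and nucleotide synthesis had a median mean difference of 0.26 over 5 genes. Of these, Pcna and Tk1 rose in the mean of both experiments, where 17.8% of all features rose. In single experiments 0 of 5 passed in limma, though 2 were higher under CO2-O2 and 1 under isoflurane at an unadjusted p under 0.05. Tk1, thymidine kinase of the salvage pathway, had the smallest adjusted p of the 5. Tk1 read 0.81, 0.86 and 1.85 in BDCM animals against 0.52, 0.57 and 0.25 in oil animals under CO2-O2, and 0.98, 1.29 and 1.06 in BDCM animals against 0.57, 0.39 and 0.62 in oil animals under isoflurane. BDCM animals were above oil animals in both experiments, and animal 3 of the CO2-O2 BDCM group stood far above the others. The mean difference of Tk1 was 0.66 ± 0.17 (SE; adjusted p = 0.0121). With every probe tested on its own, its dimmer probe had 0.60 and did not pass (adjusted p = 0.0731). Pcna codes for the sliding clamp of the replication fork. Under CO2-O2 the Pcna level was 1.76, 2.13 and 2.29 in BDCM animals and 1.74, 1.83 and 1.72 in oil animals, while under isoflurane it was 1.48, 1.66 and 1.70 in BDCM animals and 1.45, 1.45 and 1.26 in oil animals. Under CO2-O2 the lowest BDCM animal lay within the oil animals, and the groups did not overlap under isoflurane. Its mean difference was 0.26 ± 0.09 (SE; adjusted p = 0.0443), a 1.20-fold higher level that passed in 10 of the 26 other settings.

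Rrm2, the regulated subunit of ribonucleotide reductase, did not pass although its mean difference was 0.97. The Rrm2 levels were 0.90, 2.25 and 3.34 in BDCM animals and 1.21, 1.69 and 0.28 in oil animals of the CO2-O2 experiment, with 1.06, 1.89 and 1.92 in BDCM animals and 1.19, 0.59 and 0.59 in oil animals of the isoflurane experiment. BDCM and oil animals overlapped in both experiments, and the oil animals alone spanned more than 1 log2 unit under CO2-O2. The adjusted p of the mean difference was 0.0791. Rrm1, the large subunit of the same enzyme, had a mean difference of 0.17 (adjusted p = 0.181). Tyms, thymidylate synthase, had 0.12 (adjusted p = 0.357).

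**Figure D2:**
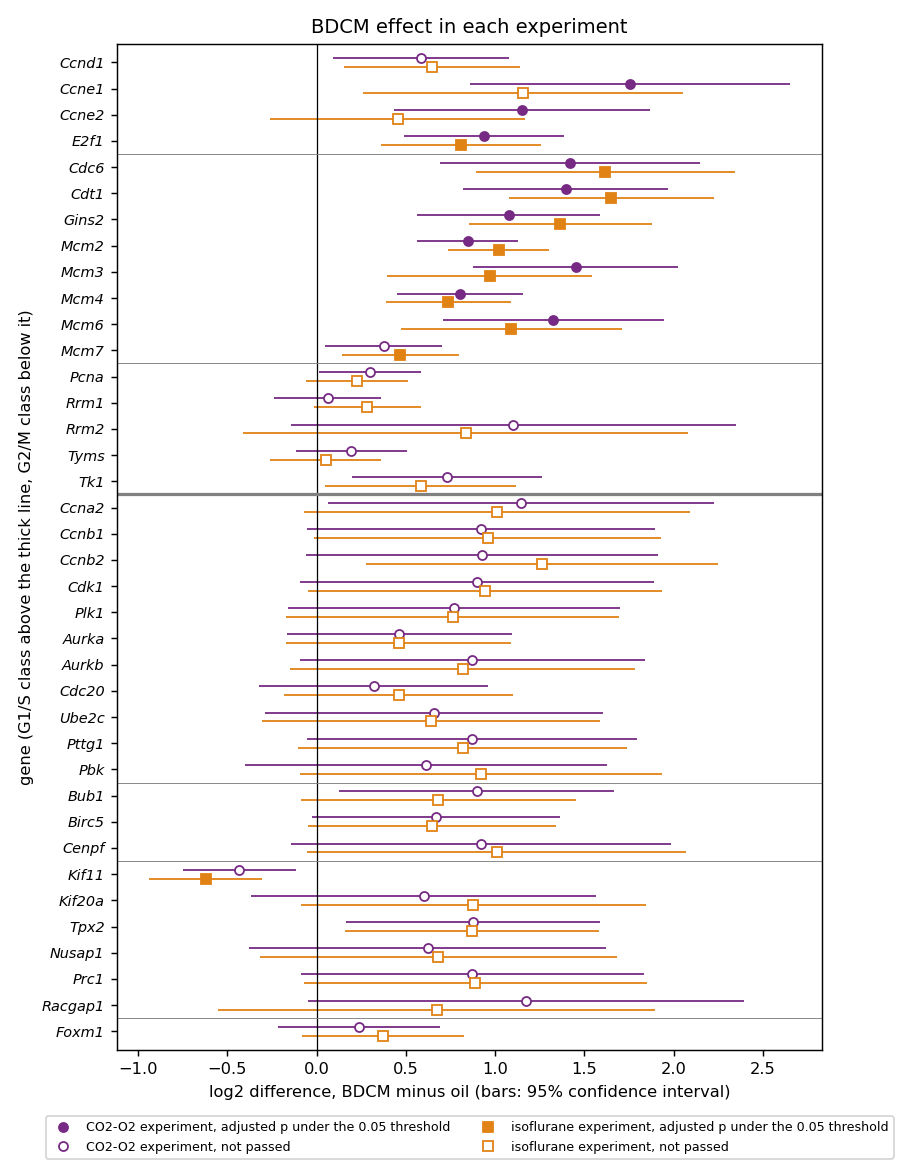
Log2 difference between BDCM and oil animals (across) for each of the 38 genes (down the page, by role) in the CO2-O2 experiment (circles) and the isoflurane experiment (squares), with 95% confidence intervals from limma and filled symbols where the adjusted p passed the threshold. The intervals of the helicase genes are short and lie right of 0, those of most G2/M genes are centred at similar values but are wide enough to reach 0, and Kif11 lies left of 0.

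Among the cyclins, kinases and degradation factors of mitosis, 5 of 11 rose in the mean of both experiments, where 17.8% of all features rose. They were Ccna2, Ccnb1, Ccnb2, Cdk1 and Pttg1. The differences of all 11 were positive, from 0.39 for Cdc20 to 1.09 for Ccnb2. Ccnb2 codes for cyclin B2, a partner of Cdk1 in mitosis. Ccnb2 read -1.92, -1.17 and -0.28 in BDCM animals against -1.80, -1.65 and -2.69 in oil animals under CO2-O2, and -1.70, -0.90 and -1.25 in BDCM animals against -1.91, -2.94 and -2.80 in oil animals under isoflurane. The lowest BDCM animal of the CO2-O2 experiment lay among the oil animals, and under isoflurane the lowest BDCM animal was narrowly above the highest oil animal. The mean difference of Ccnb2 was 1.09 ± 0.31 (SE; adjusted p = 0.0198). Cyclin A2, from Ccna2, acts in S phase and early mitosis. Under CO2-O2 the Ccna2 level was -0.94, -0.03 and 1.05 in BDCM animals and -1.06, -0.66 and -1.63 in oil animals, while under isoflurane it was -1.24, -0.22 and -0.56 in BDCM animals and -1.15, -1.69 and -2.21 in oil animals. BDCM and oil animals overlapped in both experiments. Its mean difference was 1.08 ± 0.34 (SE; adjusted p = 0.0313).

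Ccnb1, for cyclin B1, gave the same picture. The Ccnb1 levels were -1.44, -0.94 and 0.03 in BDCM animals and -1.41, -1.38 and -2.32 in oil animals of the CO2-O2 experiment, with -2.14, -1.01 and -1.33 in BDCM animals and -1.88, -2.71 and -2.76 in oil animals of the isoflurane experiment. Animal 1 of both BDCM groups lay within the range of the oil animals. The mean difference was 0.94 ± 0.31 (SE; adjusted p = 0.0357). Cdk1 itself, the kinase that drives mitosis, had 0.92 ± 0.32 (SE; adjusted p = 0.0418), and Pttg1, or securin, had 0.84 ± 0.29 (SE; adjusted p = 0.0442). The kinases Plk1, Aurka, Aurkb and Pbk and the anaphase-promoting factors Cdc20 and Ube2c did not pass, with mean differences of 0.77, 0.46, 0.84, 0.77, 0.39 and 0.65 in that order and adjusted p between 0.0527 for Aurkb and 0.162 for Cdc20. Aurkb was well above background on 2 of 3 arrays in both isoflurane groups.

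All 3 measured genes of the spindle checkpoint, kinetochore and chromosomal passenger complex rose in the mean of both experiments, where 17.8% of all features rose. Bub1 is a kinase of the spindle checkpoint. Bub1 read -1.32, -0.90 and -0.02 in BDCM animals against -1.62, -1.29 and -2.02 in oil animals under CO2-O2, and -1.83, -1.05 and -1.42 in BDCM animals against -1.69, -2.16 and -2.48 in oil animals under isoflurane. Animal 1 of the isoflurane BDCM group lay below the highest oil animal, and animal 1 of the CO2-O2 BDCM group just below the highest oil animal of its own experiment. The mean difference of Bub1 was 0.79 ± 0.24 (SE; adjusted p = 0.0279). Birc5, or survivin, belongs to the passenger complex. Under CO2-O2 the Birc5 level was -0.49, 0.15 and 0.79 in BDCM animals and -0.48, -0.33 and -0.76 in oil animals, while under isoflurane it was -0.48, 0.39 and -0.29 in BDCM animals and -0.56, -0.72 and -1.03 in oil animals. The groups overlapped under CO2-O2, and under isoflurane the lowest BDCM animal was narrowly above the highest oil animal. Its mean difference was 0.66 ± 0.22 (SE; adjusted p = 0.0386). Cenpf, of the outer kinetochore, had the widest spread of these genes. The Cenpf levels were -3.63, -3.31 and -1.75 in BDCM animals and -3.54, -3.52 and -4.38 in oil animals of the CO2-O2 experiment, with -3.85, -2.98 and -3.08 in BDCM animals and -3.75, -4.60 and -4.58 in oil animals of the isoflurane experiment. BDCM and oil animals overlapped in both experiments, and the mean difference was 0.97 ± 0.34 (SE; adjusted p = 0.0455). With every probe tested on its own, the 3 dimmer probes of Cenpf had 0.40, 0.81 and 0.75 and did not pass (adjusted p = 0.561, 0.0833 and 0.492). With normexp background correction the Cenpf difference was 0.56 and did not pass (adjusted p = 0.0601).

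Of 6 spindle and cytokinesis genes, Tpx2 and Prc1 rose and Kif11 fell in the mean of both experiments. Of all features 17.8% rose and 20.3% fell, so the count that fell was near that share. Tpx2 brings Aurka to the spindle and activates it. Tpx2 read -2.99, -2.37 and -1.88 in BDCM animals against -3.20, -2.86 and -3.80 in oil animals under CO2-O2, and -2.95, -2.10 and -2.43 in BDCM animals against -3.18, -3.55 and -3.36 in oil animals under isoflurane. One BDCM animal under CO2-O2 lay within the oil animals, and under isoflurane the groups did not overlap. The mean difference of Tpx2 was 0.87 ± 0.23 (SE; adjusted p = 0.0123). Prc1 bundles the microtubules of the central spindle. Under CO2-O2 the Prc1 level was -1.16, -0.40 and 0.52 in BDCM animals and -1.16, -0.73 and -1.77 in oil animals, while under isoflurane it was -1.31, -0.45 and -0.81 in BDCM animals and -1.21, -1.88 and -2.13 in oil animals. Animal 1 of each BDCM group lay within the oil range. Its mean difference was 0.88 ± 0.31 (SE; adjusted p = 0.0441). The dimmer Prc1 probe, tested on its own, had 0.36 and did not pass (adjusted p = 0.573). Kif20a, Nusap1 and Racgap1, which act in the central spindle and in cytokinesis, had mean differences of 0.74, 0.65 and 0.92 and did not pass (adjusted p = 0.0828, 0.134 and 0.087). For Racgap1 both dimmer probes passed with every probe tested on its own (adjusted p = 0.010 and 0.0381).

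Kif11, the motor that pushes the spindle poles apart, was the one gene of the 38 with a negative difference. The Kif11 levels were 2.01, 2.03 and 1.71 in BDCM animals and 2.32, 2.44 and 2.30 in oil animals of the CO2-O2 experiment, with 1.69, 1.19 and 1.53 in BDCM animals and 2.11, 2.23 and 1.93 in oil animals of the isoflurane experiment. All BDCM animals were below all oil animals of their experiment, as were 13.1% of all features in both experiments. The mean difference was -0.53 ± 0.10 (SE; adjusted p = 0.00235), a level of 0.694 of that in oil animals. With every probe tested on its own, a dimmer probe of Kif11 also fell, by 0.74 (adjusted p = 0.000494), whereas the dimmest probe, well above background on 6 of 12 arrays, had a difference of 0.64 and did not pass (adjusted p = 0.0779). With the mean of the 3 probes in place of the brightest the Kif11 difference was -0.21 and did not pass (adjusted p = 0.122, with a range over its 26 other settings of 0.00119 to 0.122). Of the 23 genes with several tested probes, Kif11 was the one whose probes differed in sign.

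Foxm1, the transcription factor of the G2/M programme, was the only measured gene of its group. Under CO2-O2 the Foxm1 level was -1.47, -1.05 and -0.54 in BDCM animals and -1.35, -1.14 and -1.28 in oil animals, while under isoflurane it was -1.15, -0.65 and -0.92 in BDCM animals and -1.23, -1.30 and -1.31 in oil animals. BDCM and oil animals overlapped under CO2-O2, and under isoflurane every BDCM animal was above every oil animal. Its mean difference of 0.30 ± 0.14 (SE) did not pass (adjusted p = 0.125).

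The classes thus had similar average differences and unlike regularity. Averaged over the class and set against the mean of the 6 oil arrays, the G1/S genes stood at 0.56, 0.97 and 1.44 in BDCM animals against 0.20, 0.12 and -0.08 in oil animals under CO2-O2. Under isoflurane they stood at 0.48, 0.82 and 0.93 in BDCM animals against 0.03, -0.16 and -0.10 in oil animals. All 6 BDCM animals were above all 6 oil animals. The G2/M genes stood at 0.21, 0.83 and 1.73 in BDCM animals against 0.26, 0.56 and -0.19 in oil animals under CO2-O2. Under isoflurane they stood at 0.10, 0.88 and 0.54 in BDCM animals against 0.17, -0.31 and -0.50 in oil animals. In each experiment the lowest BDCM animal was under the highest oil animal. The G1/S effect minus the G2/M effect was 0.20 under CO2-O2 and 0.10 under isoflurane. Leaving out 1 array at a time moved this between 0.05 and 0.38 under CO2-O2 and between -0.04, without oil animal 1, and 0.25 under isoflurane, so its sign under isoflurane rested on that animal.

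**Figure D3:**
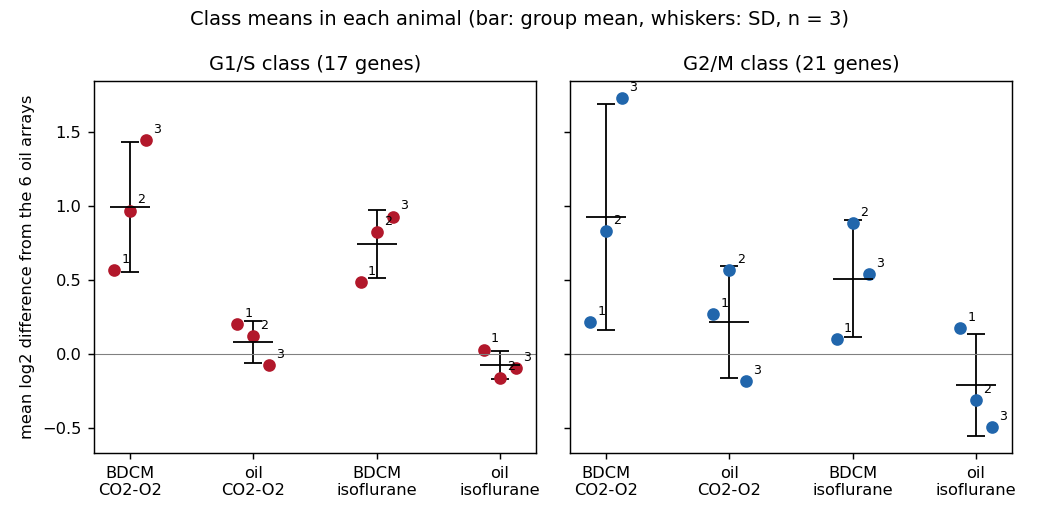
Mean over the genes of each class (left, 17 G1/S genes, right, 21 G2/M genes) in each animal, as log2 difference from the mean of the 6 oil arrays, with the animal's number beside its point, the group mean as a bar and the SD as whiskers (n = 3). The G1/S means of all 6 BDCM animals, from 0.48 to 1.44, are above those of all 6 oil animals, and the G2/M means overlap, with BDCM animals from 0.10 to 1.73 and oil animals from -0.50 to 0.56.

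The spread between animals of the same group was larger for G2/M genes. The median SD within groups was 0.590 log2 units over the 21 G2/M genes and 0.309 over the 17 G1/S genes, against 0.157 over 12208 named genes tested. Every BDCM animal was above every oil animal in both experiments for 12 G1/S genes and for none of the G2/M genes, where 13.5% of all features did so. Under CO2-O2 alone this held for 13 G1/S genes and 0 G2/M genes, where 18.3% of all features did so, and under isoflurane for 14 G1/S genes and 5 G2/M genes, where 20.6% did. Among the CO2-O2 BDCM animals, animal 3 was the highest for 20 of 21 G2/M genes and 14 of 17 G1/S genes, and animal 1 was the lowest for 20 of 21 and 16 of 17. Among the isoflurane BDCM animals, animal 1 was the lowest for 20 of 21 G2/M genes and 14 of 17 G1/S genes. The highest of them was animal 2 for 20 of 21 G2/M genes, whereas for the 17 G1/S genes it was animal 3 for 10, animal 2 for 5 and animal 1 for 2. As a description over the 12 arrays, which share library and array between genes, the deviations from the group means had a median correlation of 0.928 over 210 pairs of G2/M genes, 0.693 over 136 pairs of G1/S genes and 0.763 over 357 pairs between the classes. The injured tubule sums given above had the same order as the G1/S means among the BDCM animals of both experiments. The sums are linear, and Spp1 was the brightest of these markers in all BDCM animals. Spp1 read 5.20, 6.80 and 7.23 in BDCM animals under CO2-O2 and 4.95, 6.27 and 6.36 under isoflurane. Havcr1 read -0.63, 1.04 and 1.20 under CO2-O2 and -2.22, 0.65 and 0.09 under isoflurane, where animal 2 was the highest. The part of these markers in the result was not tested.

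**Figure D4:**
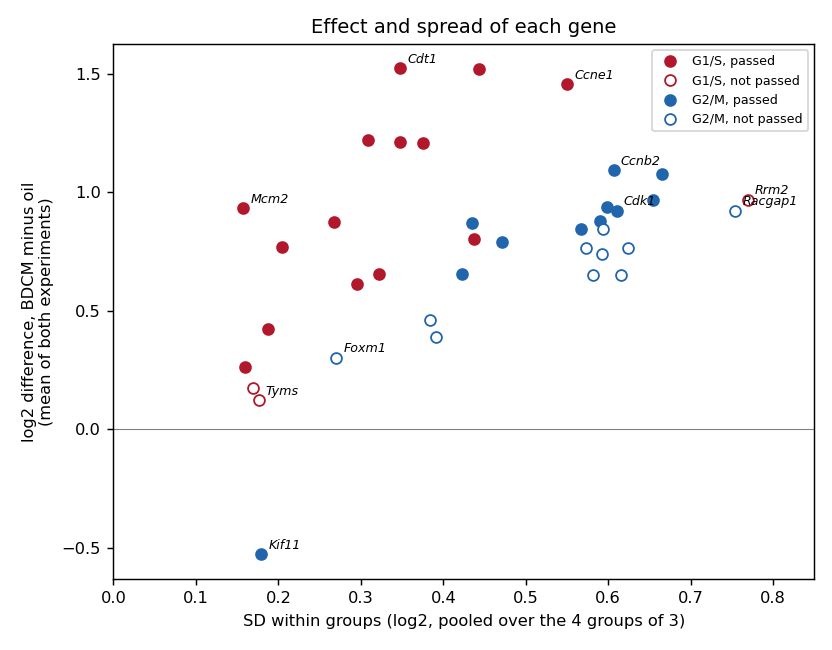
Each of the 38 genes by its SD within groups (across, log2, pooled over the 4 groups of 3) and its mean log2 difference between BDCM and oil animals (up), red for G1/S and blue for G2/M genes, filled where the mean difference passed. Most G1/S genes lie to the left of an SD of 0.5 and most G2/M genes to the right of it at similar heights, with Kif11 below 0.

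Counts of G2/M genes depended on single animals far more than counts of G1/S genes. Leaving out each array in turn gave 13 to 16 G1/S genes and 1 to 18 G2/M genes higher in the mean of both experiments, while the share of all features that passed in either direction was between 32.7% and 38.3%. Without animal 1 of the CO2-O2 BDCM group, 18 G2/M genes and 16 G1/S genes were higher, and under CO2-O2 alone 8 G2/M and 13 G1/S genes, where 38.1% and 20.7% of all features passed in either direction. Without animal 2 of the isoflurane BDCM group the G2/M count was 1, where 32.7% of all features passed. It was 2 without animal 3 of the isoflurane BDCM group, without isoflurane oil animal 2 or 3, or without CO2-O2 oil animal 3. It was 3 without CO2-O2 oil animal 1 and 4 without CO2-O2 BDCM animal 2 or 3. Of the G2/M genes that rose, Tpx2 passed in 24 and Ccnb2 in 22 of 26 other settings, Bub1 in 17, Ccna2, Ccnb1 and Birc5 in 14 each, Cdk1 in 13, Pttg1 and Prc1 in 11 each and Cenpf in 10.

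The arrays lay on 5 slides, and animals 1 and 3 of the CO2-O2 BDCM group shared a slide with no other group. They were also scanned on another day than the other CO2-O2 arrays. In the isoflurane experiment oil animals 1 and 2 shared a slide with no other group. Isoflurane BDCM animal 3 was alone on its slide and on its scan day. Slide and scan day are thus partly tied to treatment in both experiments. Within the slide that held the other CO2-O2 BDCM animal and all 3 CO2-O2 oil animals, 37 of 38 genes were higher in the BDCM animal, with a median difference of 0.69. Another slide held BDCM animals 1 and 2 and oil animal 3 of the isoflurane experiment. Within it 36 of 38 genes were higher under BDCM, with a median of 0.94. That oil animal had the lowest G2/M mean of all oil animals, -0.50. Each of these counts rests on 1 animal on 1 side, and the share of all features was not taken. With the slide as a fixed block, 8 genes rose in the mean of both experiments, all of the G1/S class (Ccne1, E2f1, Cdc6, Cdt1, Gins2, Mcm2, Mcm3 and Mcm4), where 24.3% of all features passed in either direction in place of 38.1%. In the same limma fit 0 genes rose under CO2-O2 (9 at an unadjusted p under 0.05, all G1/S) and 1 rose under isoflurane, the first resting on 1 BDCM animal and the second on 1 oil animal. With the slide as a random block the counts were 14 G1/S and 9 G2/M genes higher in the mean of both experiments.

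Between the anaesthetics, 1 of the 38 genes passed in oil animals and 1 in BDCM animals, both lower under isoflurane. In oil animals, isoflurane minus CO2-O2, all 21 G2/M genes had negative differences, with a median of -0.47. Over all features the median was 0.05, and 56.8% of the differences were positive. Of the 17 G1/S genes 12 were negative, with a median of -0.13. Of all 38 genes only Gins2 passed, where 3.55% of features were lower and 7.53% higher. Its difference of -0.95 ± 0.23 (SE; adjusted p = 0.0274) rests on isoflurane oil levels of which 1 of 3 was well above background. In BDCM animals 20 of 21 G2/M genes had negative differences, with a median of -0.41, where 57.6% of all features had positive ones. In both comparisons 0 of the 21 passed. These genes varied together between animals, so the counts of signs are not separate results. Among the 38 genes in BDCM animals only Pcna passed, with -0.45 ± 0.13 (SE; adjusted p = 0.0405), where 5.26% of features were lower and 11.8% higher. Scaling to the array median in place of the 75th percentile moved the median of all features by -0.11 in oil animals. Of the 9 liver markers tested, 1 was lower under isoflurane in oil animals, with a median difference of -1.06, and 5 were lower in BDCM animals, with a median of -1.85. Their part in the result was not tested. The anaesthetic cannot be told apart from the experiment, since each was done in its own experiment on its own slides.

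Other genes of the cycle, taken from longer lists by function, are given with their mean log2 difference between BDCM and oil animals in brackets, and those named had the smallest adjusted p of their list and direction. Of 18 other origin licensing and fork genes, 9 rose and 0 fell in the mean of both experiments, where 17.8% of all features rose and 20.3% fell. Those that rose included Tipin (0.42), which protects stalled forks, Gins1 (1.25), a second GINS subunit, and Wdhd1 (0.99), which links helicase and polymerase. Of 30 DNA polymerases, clamp loader subunits and nucleotide enzymes, 15 rose and 6 fell, the share that fell being near that of all features. Pold1 (1.12), the catalytic subunit of polymerase delta, Dctpp1 (1.16), a dCTP pyrophosphatase, and Chaf1b (1.33), of the chromatin assembly factor, led those that rose. Pole3 (-0.54), Rfc5 (-0.27) and Rpa3 (-0.22), subunits of polymerase epsilon, of the clamp loader and of the single-strand binding protein, led those that fell. Of 44 other mitotic genes, 10 rose, including Stmn1 (0.62), Mad2l1 (0.78) and Kif18a (0.70), and Kifc1 (-0.83), a minus-end motor of the spindle, fell. The share of the mitotic list that rose was near the 17.8% of all features, and its median difference was 0.57.

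Of 19 checkpoint and recombination genes, 9 rose and 1 fell. Chek1 (1.12; adjusted p = 3.24e-05), the checkpoint kinase of stalled replication, led those that rose, and Ung (-0.24), a uracil-DNA glycosylase, fell. Among 18 G1 kinases, E2F, Rb and DREAM genes, 7 rose and 4 fell, with those that fell near the share of all features that fell. Cks1b (1.21), a small partner of the cyclin-dependent kinases, E2f3 (0.42) and Tfdp1 (0.43), a dimer partner of E2F, led those that rose, against Ccnd3 (-0.50), Tfdp2 (-0.30) and Cdk2 (-0.25) among those that fell. Of 18 inhibitors and brakes of the cycle, 5 rose and 0 fell, led by Ccng1 (0.65), a p53 target, Pkmyt1 (1.31), which holds Cdk1 inactive, and Gmnn (0.69), which blocks Cdt1. The 0 that fell by limma in the licensing and brake lists, also 0 at an unadjusted p under 0.05, compare with 20.3% of all features that fell.

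Myc, an upstream driver of growth and cell cycle entry, had a larger mean difference than any of the 38 genes. Myc read 1.31, 2.02 and 2.27 in BDCM animals against -0.72, -0.25 and -0.42 in oil animals under CO2-O2, and 0.27, 2.26 and 1.27 in BDCM animals against -1.23, -1.50 and -1.23 in oil animals under isoflurane. Every BDCM animal was above every oil animal, and the mean difference was 2.46 ± 0.30 (SE; adjusted p = 0.000154). Cdkn1a, the p21 inhibitor of cyclin-dependent kinases, did not pass on its brightest probe and rose on both dimmer ones. Under CO2-O2 the Cdkn1a level was 4.76, 4.22 and 4.65 in BDCM animals and 4.65, 4.46 and 4.64 in oil animals, while under isoflurane it was 4.80, 4.62 and 4.79 in BDCM animals and 4.61, 4.81 and 4.77 in oil animals. On this brightest probe BDCM and oil animals overlapped and the mean difference was -0.02 (adjusted p = 0.903). With every probe tested on its own, a dimmer Cdkn1a probe rose by 1.57 (adjusted p = 0.0092) and the dimmest, well above background on 8 arrays, by 2.53 (adjusted p = 0.00205).

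The promoters of the 2 classes differed in the letters they hold. RefSeq promoter windows (build GRCr8, 250 bases before to 50 after the gene start) were at hand for 30 of the 43 genes, 12 G1/S and 18 G2/M, among them 5 without a matched probe. Each window was searched on both strands for E2F letters (TTTCCCGC, TTTCGCGC, TTTGCCGC or TTTGGCGC), for CHR letters (TTTGAA or TTCGAA) and for CCAAT. E2F letters were found in 7 of 12 G1/S promoters (58.3%), in 1 of 18 G2/M promoters (5.56%) and in 2.14% of all 33469 promoters. CHR letters were found in 3 of 12 G1/S promoters (25%), in 13 of 18 G2/M promoters (72.2%) and in 19.7% of all. CHR and CCAAT together were found in 2 of 12 G1/S promoters (16.7%), in 12 of 18 G2/M promoters (66.7%) and in 7.95% of all. The members were chosen for their known roles, so these shares describe the lists, and a match of letters is not a bound site.

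The upstream 250 bases of 6 genes are given as examples, 3 G1/S genes with E2F letters and 3 G2/M genes with CHR letters and CCAAT boxes. The contrast is not clean, as Mcm2, Mcm7 and Cdk1 hold both E2F and CHR letters. All 6 genes rose in the mean of both experiments. Each is written 5′ to 3′ in the direction of the gene and ends at the last base before the RefSeq start, with the letters of all 3 motifs in capitals (ATTGG is CCAAT and GCGCGAAA is TTTCGCGC on the other strand).
Mcm2, chr4:122918095-122918344, minus strand: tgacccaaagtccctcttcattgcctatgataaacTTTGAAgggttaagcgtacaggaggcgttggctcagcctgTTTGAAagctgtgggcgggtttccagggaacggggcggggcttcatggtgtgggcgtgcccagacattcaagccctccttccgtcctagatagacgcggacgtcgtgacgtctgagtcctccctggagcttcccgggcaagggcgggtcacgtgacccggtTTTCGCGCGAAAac
Mcm6, chr13:42404353-42404602, minus strand: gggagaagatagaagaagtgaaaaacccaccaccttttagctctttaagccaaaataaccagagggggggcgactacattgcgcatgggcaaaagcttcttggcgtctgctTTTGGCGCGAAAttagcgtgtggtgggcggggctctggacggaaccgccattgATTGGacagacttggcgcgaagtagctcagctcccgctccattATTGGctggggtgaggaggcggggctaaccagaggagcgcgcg
Mcm7, chr12:22163179-22163428, minus strand: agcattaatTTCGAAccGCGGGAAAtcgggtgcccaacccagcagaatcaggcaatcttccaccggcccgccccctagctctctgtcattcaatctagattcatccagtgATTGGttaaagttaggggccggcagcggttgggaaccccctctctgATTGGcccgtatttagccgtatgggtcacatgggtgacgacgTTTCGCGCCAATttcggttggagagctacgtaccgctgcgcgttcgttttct
Ccnb2, chr8:79981659-79981908, minus strand: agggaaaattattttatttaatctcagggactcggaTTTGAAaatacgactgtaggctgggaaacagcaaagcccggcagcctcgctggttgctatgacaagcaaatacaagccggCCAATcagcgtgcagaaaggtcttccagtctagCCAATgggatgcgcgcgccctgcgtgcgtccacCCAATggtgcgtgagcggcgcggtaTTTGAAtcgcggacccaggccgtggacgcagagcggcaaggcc
Cdk1, chr20:19265043-19265292, plus strand: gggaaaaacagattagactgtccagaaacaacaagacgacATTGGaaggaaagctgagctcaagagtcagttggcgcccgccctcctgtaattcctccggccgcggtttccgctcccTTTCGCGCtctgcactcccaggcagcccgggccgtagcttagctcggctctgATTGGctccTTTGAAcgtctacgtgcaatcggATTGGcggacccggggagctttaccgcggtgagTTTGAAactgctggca
Prc1, chr1:143659231-143659480, plus strand: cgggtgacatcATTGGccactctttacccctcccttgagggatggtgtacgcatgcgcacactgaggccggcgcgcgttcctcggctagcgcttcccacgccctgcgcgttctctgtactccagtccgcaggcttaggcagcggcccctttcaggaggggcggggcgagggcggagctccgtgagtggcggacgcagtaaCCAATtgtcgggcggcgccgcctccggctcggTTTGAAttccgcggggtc

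In Mcm2 a pair of E2F matches on opposite strands overlaps to form one run of capitals that starts at position -14 from the gene start, and Mcm6 has such a pair starting at -139. In Mcm7 the nearer E2F match starts at -52 and runs into a CCAAT box at -45, and the farther one at -233 lies beside CHR letters. Mcm2 also holds CHR letters, at -215 and -175. In the G2/M genes the nearest CHR letters start at -43 in Ccnb2, at -16 in Cdk1 and at -18 in Prc1, with the nearest CCAAT boxes at -68, -49 and -50. Cdk1 is the one G2/M gene of the 18 with E2F letters, at -133. Neither E2F nor CHR letters were found in 4 of 12 G1/S and 5 of 18 G2/M windows. Kif11, which fell, was among these, as were Ccne1, Gins2, Pcna, Tk1, Ccnb1 and Bub1, which rose. The others were Aurka and Kif20a, which did not pass.

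**Figure D5:**
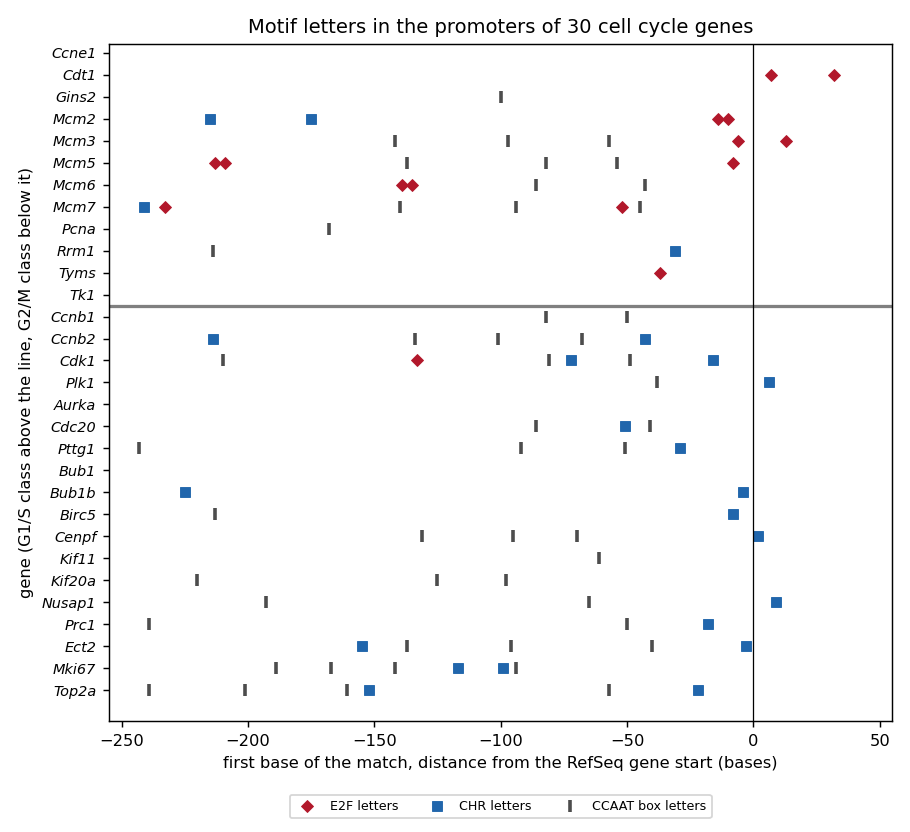
Position of each motif match (first base, in bases from the RefSeq gene start, across) in the promoter windows of 30 genes (down the page, G1/S above the line and G2/M below it), with diamonds for E2F letters, squares for CHR letters and ticks for CCAAT. Diamonds fall in 7 of 12 G1/S genes and 1 of 18 G2/M genes, and squares in 13 of 18 G2/M genes, most of them close to the start.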

How the data were processed

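Per the file headers, the deposited scanner files hold spot intensity from single-colour Agilent arrays read with Feature Extraction 10.7.1.1 (10.7 per the submitters' processing notes), already background-corrected in the processed signal column used here. Control and ERCC spots and outlier-flagged spots were left out, log2 was taken and each array's 75th percentile was subtracted. The deposited value table, in which the authors' values are a linear ratio (processed signal over each array's 75th percentile, as the values show), served as an alternative, and 6 of its 12 columns, those under CO2-O2, equal the scanner file of another animal of the same group, so animal numbers there are those of the scanner files. Accessions were named through RefSeq (GRCr8), giving 27460 of 61657 probes 1 symbol. The brightest probe stood for a gene, and a feature was tested if a whole group of 3 arrays had it well above background. limma 3.58.1 (R 4.3.3) fitted 1 mean per group over 12 arrays. The fit was tested on simulated data with known changes.

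The 43 genes, the other lists and the tests were chosen with earlier results of these data known. Every listed gene is accounted for. Per-array values are given for the 3 genes of each role group with the smallest adjusted p of the mean difference and for any that fell, up to 3 genes per direction are named from the other lists, and Cdkn1a and Myc were fixed. Some genes that this rule names are not reported here. Alternatives covered scaling, background correction, filters, probe choice, array weights and blocks for slide, replicate number, scan day and array row. They also covered each experiment fitted alone, a stricter threshold and leaving out each array. The number of arrays limits the precision.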

Additional observations from a re-analysis of the deposited data

How the results depend on the processing

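Counts of the 38 genes were recomputed under other settings, of which the blocks for scan day and array row were chosen after seeing the data. With slide as a fixed block, 0 genes rose under CO2-O2, 1 rose and 0 fell under isoflurane, and 8 rose and 0 fell in the mean of both experiments. With scan day as a fixed block, 6 rose under isoflurane and 9 in the mean, all of the G1/S class. There 23.3% and 33.4% of all features passed in either direction. In that limma fit 2 G2/M genes were higher in the mean at an unadjusted p under 0.05. Its CO2-O2 difference rested on 1 BDCM animal, with a median of 0.80 over G1/S and 0.67 over G2/M genes. With array row 14 rose in the mean, where 31.5% of all features passed, and 1 fell under CO2-O2, where 15.1% passed. At an adjusted p of 0.01, 5 rose under CO2-O2, 5 rose and 0 fell under isoflurane and 10 rose in the mean. All that rose were of the G1/S class. Of all features 8.34%, 12.3% and 23.7% passed in either direction, in that order. With the mean of all probes 0 fell under isoflurane and 0 in the mean, and with array weights 1 fell under CO2-O2. The shares of all features passing in either direction were 25.6%, 37.4% and 23.7% in that order. Without the detection filter 13 G1/S and 3 G2/M genes rose in the mean, where 22.8% of all features passed in either direction. The count lower under isoflurane in oil animals (1) became 2 with median scaling or array weights and 0 with normexp, the replicate block, array row or a threshold of 0.01. In BDCM animals the count lower under isoflurane (1) became 2 with quantile normalization or normexp, 3 with median scaling, and 0 without the filter, with the mean of probes, slide as a random block, array row or a threshold of 0.01. Leaving out each array gave 7 to 21 higher and 0 to 1 lower under CO2-O2, and 6 to 13 higher and 1 lower under isoflurane. It gave 14 to 34 higher and 1 lower in the mean, and 0 to 2 lower between anaesthetics in oil and in BDCM animals. Of all features, 11.4% to 22.6% passed in either direction under CO2-O2, 15.9% to 26.7% under isoflurane and 32.7% to 38.3% in the mean. The G1/S minus G2/M effect ranged from 0.0471 to 0.379 under CO2-O2 and from -0.0398 to 0.252 under isoflurane. Replicate numbers did not pair the animals (correlations of same-numbered deviations from -0.0232 to 0.0542). With the replicate number as a block 10 rose under CO2-O2, 9 under isoflurane and 14 G1/S and 5 G2/M genes in the mean. There 18.8%, 25% and 37.1% of all features passed in either direction. Over single genes 220 results lost and 63 gained a call under some setting and 0 changed sign after a call. The cause of these changes was not tested, except that settings leaving out arrays use fewer animals. Genes near background on some arrays (Cdc6, Gins2, Aurkb) are limited by signal.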
